A study of Mus musculus with 9 samples.

Results

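The interleukin-1 (IL-1) family and inflammasome genes described here are Il1a, Il1b, Il1rn, Il1r1, Il1r2, Il18, Il33, Nlrp3, Casp1 and Il18bp. They were taken by symbol, 10 of the 22637 gene symbols counted in each library. Whole-kidney RNA was counted in 9 libraries from mice of the 129X1/SvJ strain at 9 weeks of age. The groups were Col4a3 -/- mice given antimiR-21, which blocks the microRNA miR-21 (KO_antimiR21, n = 3), Col4a3 -/- mice given PBS (KO_PBS, n = 3), and wild-type mice with no treatment (WT, n = 3). Col4a3 encodes a chain of type IV collagen of the glomerular basement membrane, and its loss in mice is used as a model of Alport syndrome. Genotype was therefore compared together with the injection. The labels give neither dose nor schedule of the inhibitor. They do not state in words that each library is a different mouse, but the deposited names give each library a number of its own, and replicates of a group differed beyond sampling noise.

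IL-1 signalling starts when IL-1alpha or IL-1beta binds the receptor IL-1R1, which recruits the adaptor MyD88 and leads to NF-kappaB activity. It is held in check by a receptor antagonist and by a decoy receptor that binds the ligand without signalling. IL-1beta and IL-18 are made as inactive precursors, and caspase-1 cuts them once an inflammasome such as that of NLRP3 has assembled, whereas IL-1alpha and IL-33 are held in the nucleus and released from damaged cells. In the kidney these cytokines are known from macrophages, dendritic cells, injured tubules and stromal cells. RNA levels do not show whether a precursor was cut or released.

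MiR-21, the target of the inhibitor, is printed with its seed (bases 2 to 8) in capitals, because sites for that seed were searched in the 10 genes. The sequence is that of RefSeq on GRCm38.p6, at chr11:86584120-86584141 on the minus strand.
mmu-miR-21a-5p: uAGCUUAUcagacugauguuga
A 7-base site for the seed (ATAAGCT, or TAAGCTA) was present in 1 of the 10 genes, Il33, when the longest 3' untranslated region of each was read. Over 21004 genes with such a region, 11.1% held either site. The site in Il33 begins at base 1282 of a region of 1677 bases and is printed in capitals.
Il33 site: actacatttttATAAGCTtaaaacttaca
The match is a description of letters and not evidence of binding.

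Libraries held 26448275 to 31786624 expected counts. Col4a3 stood at 70.6 to 138 CPM (the count scaled to a common library size) in KO_antimiR21, at 44.3 to 94.3 CPM in KO_PBS and at 257 to 371 CPM in WT, so each knockout library was below each WT library. Markers of podocytes, proximal tubule, thick ascending limb and collecting duct were present in all 9 libraries. The deposited library names mark WT 1 and WT 3 as F and WT 2 as M, and Y-linked RNA was near 0 in those marked F and present in the other 7, which are taken as male. The names also carry a code of unstated meaning, which was L5 for all KO_antimiR21 libraries and KO_PBS 3, and L4 for KO_PBS 1, KO_PBS 2 and the WT libraries. Fat cell markers summed to 79.5 CPM in KO_antimiR21 3, against 0.504 to 26.3 CPM in the other 8 libraries.

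The first comparison asked how the 10 genes stood in PBS-injected knockout kidneys relative to wild-type kidneys. Of the 10, 8 rose in KO_PBS, none fell, and Il18 and Il18bp did not pass the test (edgeR quasi-likelihood test, adjusted p under 0.05 over all 17315 genes tested). Over all genes tested, 14.6% rose and 9.85% fell. The median log2 fold change was 2.34 for the 10 genes and -0.03 for all genes tested. The groups did not overlap, with KO_PBS higher, for 9 of the 10, against 22.6% of all genes. Il1a, Il1rn and Il1r2 reached the filter on low counts only through the knockout libraries, so they could not have been tested unless they were higher there. Of the other 7 genes 5 rose.

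Il1b, the main secreted agonist of the family, was at 22.6, 8.78 and 9.75 CPM in KO_PBS 1, 2 and 3, against 1.14, 2.04 and 1.33 CPM in WT 1, 2 and 3. Every KO_PBS library was above every WT library, and KO_PBS 1 was more than double the other KO_PBS libraries. The log2 fold change was 3.18 ± 0.46 (SE, edgeR adjusted p = 0.00239), and 2.61 without KO_PBS 1. Il1a, the other IL-1 agonist, was scarce, with 18, 13 and 13 expected counts in KO_PBS and 0, 4.24 and 2 in WT. A count of 0 in WT 1 allows a level of up to 0.127 CPM (3 counts). Il1a rose by 2.39 ± 0.68 on the log2 scale (edgeR adjusted p = 0.0339), a call that was lost without WT 1, WT 3 or any 1 of the KO_PBS libraries (edgeR adjusted p = 0.0551 to 0.0946).

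Il33, an alarmin of stromal, endothelial and epithelial cells that signals through the receptor ST2, was at 25.4, 21.1 and 17.5 CPM in KO_PBS, against 5.36, 3.33 and 4.34 CPM in WT. The lowest KO_PBS library stood far above the highest WT library. The log2 fold change was 2.29 ± 0.31 (edgeR adjusted p = 0.00185). Il18, a cytokine that caspase-1 activates, was at 6.80, 5.11 and 4.19 CPM in KO_PBS, against 3.29, 3.37 and 3.82 CPM in WT. Its groups lay close together without overlapping, and its difference of 0.62 ± 0.23 did not pass (edgeR adjusted p = 0.0794). It passed with library size as the only scaling (0.91, edgeR adjusted p = 0.0328) and by DESeq2 (adjusted p = 0.0416).

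Il1rn, which encodes the receptor antagonist, had the largest fold change of the 10 genes. It was at 20.1, 22.0 and 25.5 CPM in KO_PBS, against 0.253, 1.48 and 0.282 CPM in WT. The KO_PBS libraries were close to one another, while WT 2, the male WT library, stood above both female WT libraries. As WT 2 is the only male WT library, sex and other traits of that library cannot be told apart. The log2 fold change was 5.05 ± 0.67 (edgeR adjusted p = 0.00182), and it was 6.39 without WT 2. In the authors' deposited log2 matrix the same gene was at 4.32, 4.43 and 4.69 in KO_PBS, against -1.84, 0.59 and -1.77 in WT.

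Il1rn has several annotated starts in RefSeq, and 2 of their windows, 250 bases before to 50 after a start, are printed because the gene changed most and each holds a motif searched. Capitals mark TGANTCA (AP-1) in the one and an NF-kappaB motif in the other, on GRCm38.p6 at chr2:24336610-24336909 and chr2:24345121-24345420, both on the plus strand.
Il1rn start 1: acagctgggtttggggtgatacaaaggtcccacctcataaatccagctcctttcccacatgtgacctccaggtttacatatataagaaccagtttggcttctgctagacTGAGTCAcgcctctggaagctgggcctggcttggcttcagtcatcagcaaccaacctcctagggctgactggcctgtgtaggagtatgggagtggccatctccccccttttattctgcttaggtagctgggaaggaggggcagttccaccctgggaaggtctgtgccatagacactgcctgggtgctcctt
Il1rn start 3: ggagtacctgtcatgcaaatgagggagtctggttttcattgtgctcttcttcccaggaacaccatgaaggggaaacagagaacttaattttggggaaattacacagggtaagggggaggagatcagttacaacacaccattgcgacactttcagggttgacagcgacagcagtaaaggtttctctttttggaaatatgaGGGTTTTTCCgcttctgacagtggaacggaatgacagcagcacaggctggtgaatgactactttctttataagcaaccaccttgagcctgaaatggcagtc
The AP-1 letters began 141 bases before start 1, and the NF-kappaB letters 51 bases before start 3. Both strands were searched in 15 windows of the 10 genes. The NF-kappaB letters were found in 1 of the 10 genes (Il1rn, in overlapping windows of starts 2 and 3), against 1.89% of 27025 genes. TGANTCA was found in 2 (Il1rn and Il1a), against 8.97%, and GAGGAA, the core of the PU.1 motif, in 4 (Il1a, Il33, Nlrp3 and Casp1), against 31.3%. An interferon-regulatory factor motif was found in none of the windows, against 3.99% of genes. These matches are letters in a window, not sites shown to be bound.

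Il1r2, the decoy receptor, was at 2.69, 1.87 and 2.17 CPM in KO_PBS, against 0.127, 0.20 and 0.201 CPM in WT. Each WT library held only 3 to 5 expected counts. Il1r2 rose by 3.64 ± 0.56 (edgeR adjusted p = 0.00288). Il1r1, the signalling receptor, was at 33.1, 35.2 and 24.2 CPM in KO_PBS, against 13.0, 16.6 and 14.1 CPM in WT. Its log2 fold change was smaller, 1.09 ± 0.21 (edgeR adjusted p = 0.00721). Il18bp, which encodes a secreted protein that binds and blocks IL-18, was at 15.1, 11.2 and 9.47 CPM in KO_PBS, against 13.7, 8.90 and 14.2 CPM in WT. These groups overlapped fully, with a log2 fold change of -0.04 ± 0.25 (edgeR adjusted p = 0.935).

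Nlrp3, the sensor of the NLRP3 inflammasome, was at 3.67, 4.27 and 5.0 CPM in KO_PBS, against 0.591, 0.521 and 0.563 CPM in WT. All KO_PBS libraries stood far above the WT libraries, which were close to one another, and Nlrp3 rose by 2.94 ± 0.32 (edgeR adjusted p = 0.00135). Casp1, which encodes the caspase that cuts pro-IL-1beta and pro-IL-18, was at 4.93, 3.67 and 2.79 CPM in KO_PBS, against 0.886, 1.12 and 1.41 CPM in WT. It rose by 1.73 ± 0.30 (edgeR adjusted p = 0.00483).

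With sex as a covariate none of the 10 genes passed and 0 of all genes did (edgeR, with 7 of the 10 genes and 4389 of all genes at an unadjusted p under 0.05), as sex then rests on the WT group alone. Il1rn was then at 3.92, Nlrp3 at 3.04, Il33 at 2.68 and Il1b at 2.74, with edgeR adjusted p of 0.0553 to 0.0706 for these 4 genes.

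**Figure D1:**
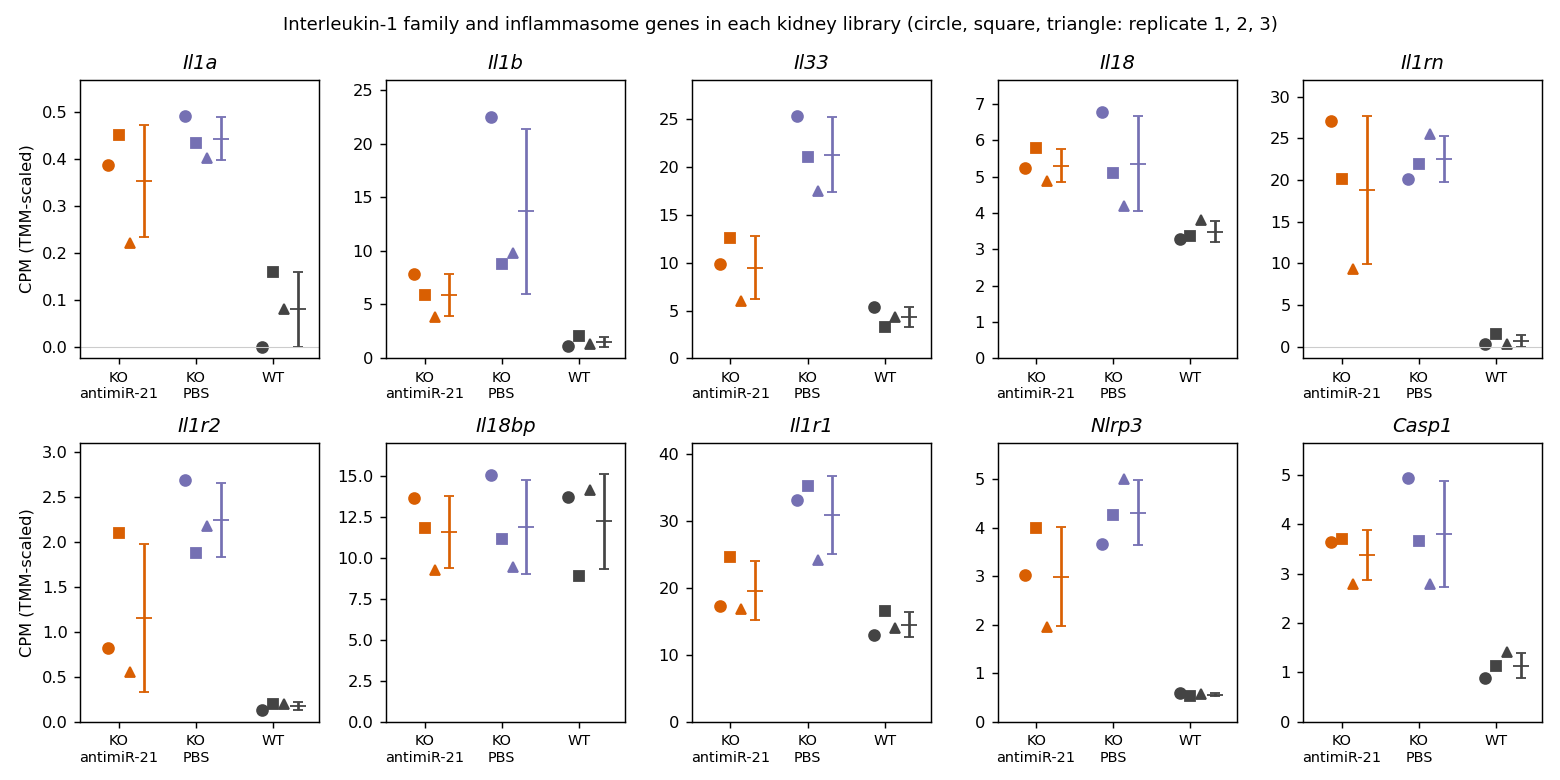
Levels in CPM (y axes, TMM-scaled, with 0 on each axis) of the 10 genes in each library of KO_antimiR21, KO_PBS and WT, with replicates 1, 2 and 3 as circle, square and triangle, and the mean ± SD beside them (n = 3). For Nlrp3 all 6 knockout libraries sit between 1.95 and 5.0 CPM and the WT libraries between 0.521 and 0.591 CPM, whereas the 3 groups overlap for Il18bp.

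The second comparison asked what differed in knockout kidneys between the miR-21 inhibitor and PBS. None of the 10 genes passed, and none of the 17315 genes tested did (0%, edgeR), while 3 of the 10 and 6.95% of all genes had an unadjusted p under 0.05. DESeq2 called 18 of all genes and none of the 10. The fold change was below 0 for each of the 10 genes, with a median of -0.42, against -0.01 for all genes. That median was -0.17 without KO_antimiR21 3, where Il1rn, Il18 and Il18bp were above 0, and -0.64 without KO_antimiR21 2. With the library code as a covariate, and within code L5, none of the 10 genes had an unadjusted p under 0.05, against 1.28% and 0.99% of all genes by edgeR. The groups did not overlap, with KO_antimiR21 lower, for Il1b and Il33, 2 of the 10, against 6.85% of all genes.

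Il33 was at 9.85, 12.6 and 6.03 CPM in KO_antimiR21, against 25.4, 21.1 and 17.5 CPM in KO_PBS. All KO_antimiR21 libraries were below all KO_PBS libraries, and their mean was 9.49 ± 3.30 CPM, against a KO_PBS mean of 21.3 ± 3.96 CPM (SD, n = 3 each). The difference was -1.17 ± 0.29 on the log2 scale (edgeR unadjusted p = 0.00325, adjusted p = 0.707). Over fits with 1 library left out it ran from -1.40 to -0.90, and against KO_PBS 3 alone, the KO_PBS library that shares the code L5, it was -0.88.

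Il1b was at 7.84, 5.90 and 3.86 CPM in KO_antimiR21, against 22.6, 8.78 and 9.75 CPM in KO_PBS. The groups did not overlap, but the distance between them was set largely by KO_PBS 1: the difference was -1.22 ± 0.42 (edgeR unadjusted p = 0.0178, adjusted p = 0.707) and -0.64 without that library. Il1r1 was at 17.3, 24.7 and 16.8 CPM in KO_antimiR21, against 33.1, 35.2 and 24.2 CPM in KO_PBS. Only KO_antimiR21 2 reached into the KO_PBS range, and the difference was -0.65 ± 0.21 (edgeR unadjusted p = 0.0113, adjusted p = 0.707). Among libraries with the code L5 Il1b was at -0.73 and Il1r1 at -0.31.

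The other genes of the family overlapped between the treatments. Il1rn was at 27.0, 20.1 and 9.34 CPM in KO_antimiR21, against 20.1, 22.0 and 25.5 CPM in KO_PBS, and the difference of -0.26 ± 0.54 turned to 0.09 without KO_antimiR21 3. Il1r2 was at 0.815, 2.09 and 0.551 CPM in KO_antimiR21, against 2.69, 1.87 and 2.17 CPM in KO_PBS, a difference of -0.95 ± 0.47. KO_antimiR21 2 stood with the KO_PBS libraries, and without it the difference in Il1r2 was -1.69. Nlrp3 was at 3.03, 4.0 and 1.95 CPM in KO_antimiR21, against 3.67, 4.27 and 5.0 CPM in KO_PBS (-0.53 ± 0.29). Casp1, Il18, Il18bp and Il1a differed by -0.17 ± 0.29, -0.02 ± 0.22, -0.04 ± 0.25 and -0.32 ± 0.56, and their signs, other than that of Il1a, turned in some of the other fits. Adjusted p-values of these 7 genes were 0.708 to 0.998 by edgeR.

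KO_antimiR21 libraries differed widely among themselves. KO_antimiR21 3 was the lowest of the 6 knockout libraries for 9 of the 10 genes, all but Il18. KO_PBS 1 was the highest for 7 of the 10. Without KO_antimiR21 2, 5 of the 10 genes and 14.6% of all genes had an unadjusted p under 0.05, and none of the 10 passed after adjustment.

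Summed cell markers were also compared between the treatments, with no gene of any marker list past the threshold. The sums overlapped for macrophage and proximal tubule markers and did not for fibroblast and pericyte markers. They did not overlap either for dendritic cell markers, at 29.7 to 61.0 CPM in KO_antimiR21 and 61.7 to 68.1 CPM in KO_PBS. Mast and innate lymphoid cell markers were also apart, with KO_antimiR21 higher, at 78.6 to 115 CPM against 62.4 to 72.3 CPM in KO_PBS. Macrophage markers (10 of 10 tested) summed to 963, 1439 and 628 CPM in KO_antimiR21 1, 2 and 3 and to 1226 to 1386 CPM in KO_PBS, with a median difference of -0.56 and 0 genes past the threshold. Fibroblast and pericyte markers (7 of 7 tested) summed to 899, 799 and 434 CPM in KO_antimiR21 and to 1343 to 1710 CPM in KO_PBS, with a median difference of -0.93, 0 genes past the threshold and 5 at an unadjusted p under 0.05 by edgeR, against 6.95% of all genes. Proximal tubule markers summed to 3303 to 6810 CPM in KO_antimiR21 and to 1379 to 4325 CPM in KO_PBS and were above 0 for 7 of 7, with a median difference of 0.73. Thick ascending limb and distal markers were above 0 for 5 of 5, with a median of 0.60. An unadjusted p under 0.05 by edgeR was reached by 3 of these 5, 2 of 10 macrophage and 0 of 7 proximal tubule markers. T cell, dendritic cell and neutrophil markers had medians of -0.17, -0.31 and -0.26. No marker of these lists was at 0 in all libraries. KO_antimiR21 3, lowest of the knockout libraries for 9 of the 10 genes, was also lowest for the macrophage and fibroblast sums. In RNA from whole tissue, fewer cells of a type and less RNA per cell cannot be told apart, and the part of cell numbers in these differences was not tested.

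**Figure D2:**
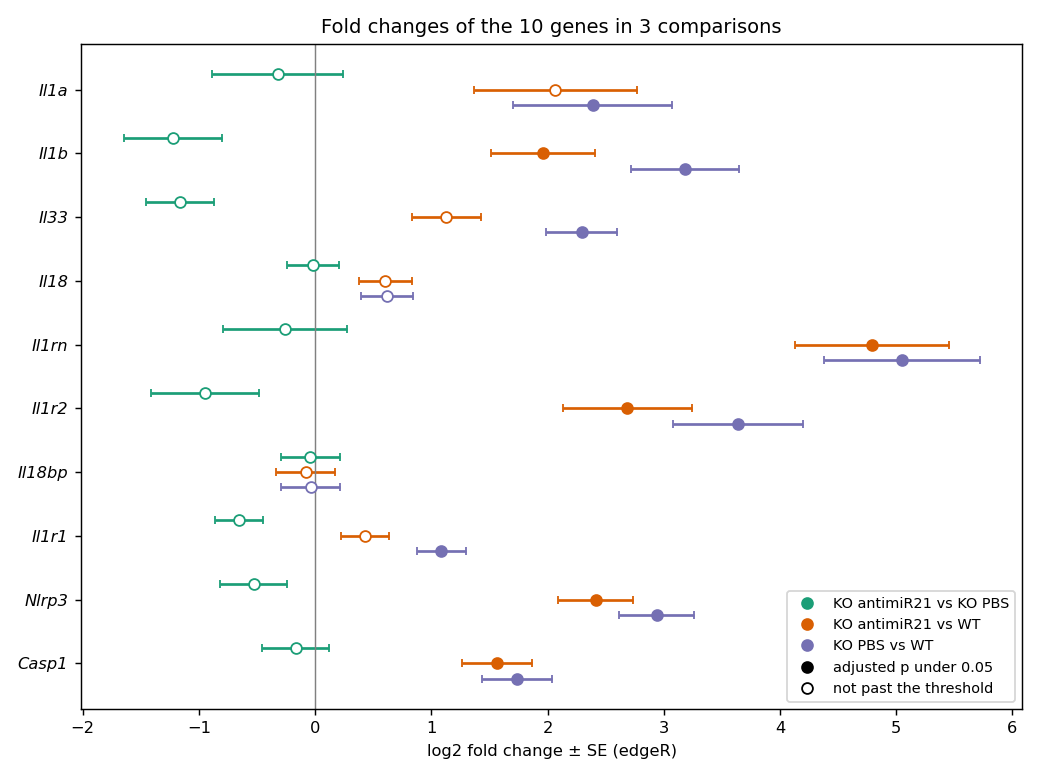
Log2 fold change ± SE (x axis, edgeR) of the 10 genes for KO_antimiR21 against KO_PBS, KO_antimiR21 against WT and KO_PBS against WT, with filled points past an adjusted p of 0.05. Il1rn lies farthest from 0 in both comparisons with WT (4.79 and 5.05), and no point of the comparison between treatments is filled.

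The last comparison set inhibitor-treated knockout kidneys against wild type. It shares its WT libraries with the first comparison and its inhibitor libraries with the second, so the 3 sets of values are not independent. Of the 10 genes 5 rose and none fell, where 6.72% of all genes rose and 0.427% fell. Of the 7 genes at the filter in every WT library 3 rose. The groups did not overlap, with KO_antimiR21 higher, for 9 of the 10 genes, against 14.6% of all genes. The median log2 fold change was 1.76 for the 10 genes and -0.04 for all genes.

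The 5 genes were Il1rn (4.79 ± 0.66, edgeR adjusted p = 0.00477), Nlrp3 (2.41 ± 0.32, edgeR adjusted p = 0.00441), Casp1 (1.57 ± 0.30, edgeR adjusted p = 0.0148), Il1r2 (2.69 ± 0.56, edgeR adjusted p = 0.0209) and Il1b (1.96 ± 0.45, edgeR adjusted p = 0.0318). Casp1 was at 3.65, 3.71 and 2.79 CPM in KO_antimiR21, against 0.886, 1.12 and 1.41 CPM in WT, so the lowest inhibitor library was still well above the highest WT library. Il33 stood at 1.13 ± 0.30 (edgeR adjusted p = 0.0566) and Il1a at 2.07 ± 0.70 (edgeR adjusted p = 0.132). Il1r1 was at 0.43 ± 0.21 and Il18 at 0.60 ± 0.23 (edgeR adjusted p = 0.287 and 0.177), both without overlap between the groups. Il18bp, at 13.7, 11.9 and 9.26 CPM in KO_antimiR21, overlapped the WT libraries.

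Only Il1rn and Nlrp3 kept their call in each of the 9 fits with 1 library left out. Without WT 1, 2 of the 10 genes passed, and without WT 3 it was 3. Of all genes, 725 of 17616 rose without WT 1 and 651 of 17578 without WT 3, against 1164 of 17315 with all 9 libraries. With sex or the library code as a covariate, and among male libraries, none of the 10 genes and 0 of all genes passed by edgeR.

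Ratios within a library do not depend on its scaling. The antagonist Il1rn relative to its agonist Il1b averaged 1.61 ± 0.29 in KO_antimiR21, 0.85 ± 0.88 in KO_PBS and -1.57 ± 0.96 in WT (log2 of the ratio of expected counts, SD, n = 3 each). Il1rn counts exceeded Il1b counts by 2.41 to 3.44 times in KO_antimiR21, were 0.89 times Il1b counts in KO_PBS 1 and 2.50 and 2.61 times in KO_PBS 2 and 3, and were 0.236, 0.728 and 0.224 times Il1b counts in WT. Each knockout library was above each WT library, by 2.41 between the means for KO_PBS and 3.17 for KO_antimiR21. KO_PBS 1, at -0.17, was close to WT 2, the male WT library, at -0.46. The female libraries WT 1 and WT 3 were at -2.08 and -2.16. These ratios are of counts and not of molecules, since the genes differ in length.

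The decoy Il1r2 relative to Il1r1 averaged -4.27 ± 0.68 in KO_antimiR21, -3.77 ± 0.40 in KO_PBS and -6.23 ± 0.23 in WT. All knockout libraries were again above all WT libraries. The WT values rest on 3 to 5 expected counts of Il1r2. Il1r2 and Il1rn reached the filter on low counts only through the knockout libraries. The permutation tests of their ratios therefore add no separate support for their rise over WT. Il18bp relative to Il18 went the other way, at 1.11 ± 0.24 in KO_antimiR21, 1.15 ± 0.02 in KO_PBS and 1.78 ± 0.34 in WT. Each knockout library was below each WT library, but KO_antimiR21 1 (1.38) nearly met WT 2 (1.40), the male WT library. The female libraries WT 1 and WT 3 were at 2.06 and 1.88. The exact two-sided permutation p was 0.1 for the 6 differences from WT, the smallest that 3 libraries against 3 allow. Between KO_antimiR21 and KO_PBS it was 0.3 for Il1rn to Il1b, 0.3 for Il1r2 to Il1r1 and 0.8 for Il18bp to Il18. Adjusted over the 9 differences by Benjamini-Hochberg, the exact values were 0.15, 0.337, 0.337 and 0.8.

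**Figure D3:**
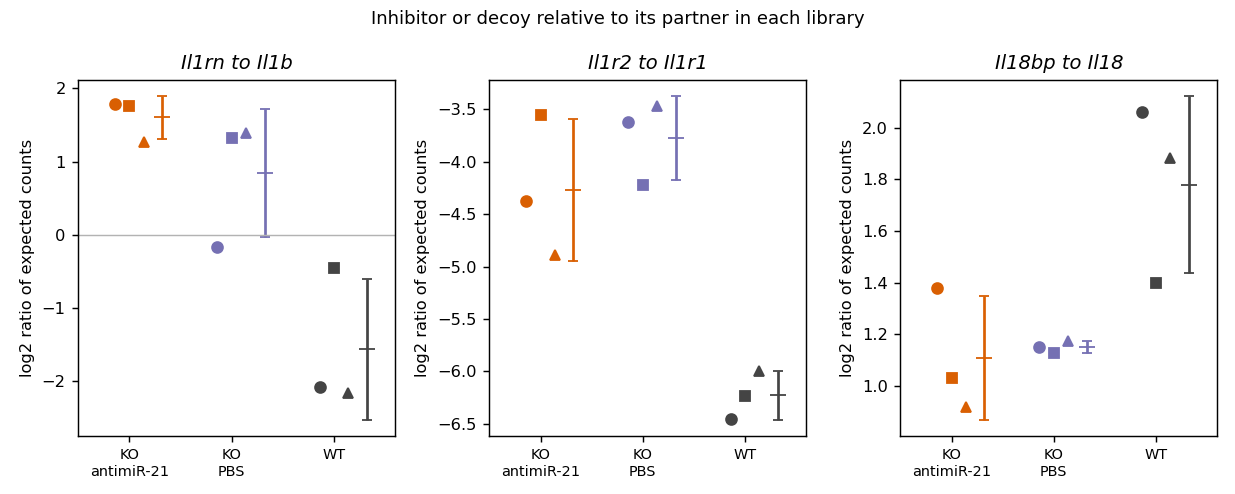
Log2 ratio of expected counts (y axes, each with its own range) of Il1rn to Il1b, Il1r2 to Il1r1 and Il18bp to Il18 in each library of KO_antimiR21, KO_PBS and WT, with the mean ± SD beside the points (n = 3). The knockout libraries lie above WT for Il1rn to Il1b and Il1r2 to Il1r1 and below WT for Il18bp to Il18. Of the WT libraries, WT 2 lies nearest to them for Il1rn to Il1b (-0.46) and Il18bp to Il18 (1.40). KO_PBS 1, at -0.17, is the lowest knockout library for Il1rn to Il1b.

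Levels can be compared between genes only per length, here as CPM per kilobase of annotated exon. In KO_antimiR21 the order began with Il18 (5.15 ± 0.45), Il18bp (3.83 ± 0.73) and Il1rn (3.40 ± 1.61). The range of Il1rn overlapped those of Il18, Il18bp, Il33, Il1r1, Il1b and Casp1. In KO_PBS it began with Il33 (7.38 ± 1.37) and Il1b (7.18 ± 4.03), whose ranges overlapped, and Il18 was at 5.20 ± 1.28. In WT it began with Il18bp (4.05 ± 0.96) and Il18 (3.39 ± 0.28), whose ranges overlapped, ahead of Il1r1 (2.28 ± 0.29), Il33 (1.5 ± 0.35) and Il1b (0.789 ± 0.25). Il18, Il1r1, Il33 and Il1b did not overlap with their neighbours among these 4 genes. Il1rn was at rank 3 in KO_antimiR21, 5 in KO_PBS and 8 in WT, and Il1a was at rank 10 in each group. Among WT libraries Il1a, Il1rn, Il1r2 and Nlrp3 reached at most 0.268.

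The genes most like each member were those with the smallest root mean square difference in centred log2 CPM over the 9 libraries. For Il1rn they were the chemokine gene Ccl2 (0.34), the adhesion receptor gene Cd44 (0.40) and the chemokine gene Ccl7 (0.41). For Il1r2 they were the macrophage mannose receptor gene Mrc1 (0.24), the cytokine receptor gene Csf2rb (0.24) and the gelatinase gene Mmp9 (0.25). For Il33 they were the chemokine gene Cxcl14 (0.18), Cyp1b1 (0.18) and Kdelr3 (0.19), and for Il1r1 the cell adhesion genes Vcl (0.14) and Zyx (0.15), with Fath (0.14). Casp1 was nearest to the interferon-induced Ifit1 (0.12) and Nlrp3 to Arhgap30 (0.14). The gene nearest to Il1b was St8sia2 (0.27). Of the 10 genes Il1rn had the most distant nearest gene.

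Other genes of the pathway were read from lists of its parts, whose counts in KO_PBS against WT stand beside the 14.6% of all genes that rose and the 9.85% that fell. Some of them did not reach the filter on low counts in every WT library and were tested because the knockout libraries did. They included the ligand Il1f6, the receptors Il1rl1 and Il18rap, and the sensors Nlrp10 and Mefv. Of the receptors at the filter in every WT library, 1 of 4 rose in KO_PBS against WT, and of such sensors 4 of 7. Among the other ligands, 2 of 5 had enough counts to test. Il1f6, now Il36a, an IL-36 agonist, was at 12.3, 14.05 and 3.86 CPM in KO_antimiR21, 14.9, 11.5 and 10.7 CPM in KO_PBS and 0, 0.682 and 0 CPM in WT. Only WT 2 of the WT libraries held reads, so the fitted fold depends on the prior count. It rose by 5.73 ± 1.05 in KO_PBS against WT (edgeR adjusted p = 0.00591) and by 5.43 ± 1.04 in KO_antimiR21 against WT (edgeR adjusted p = 0.0146). Il1f5, now Il36rn, the antagonist of the IL-36 receptor, was at -0.92 ± 0.51 in KO_PBS against WT (edgeR adjusted p = 0.232). Of 6 other receptors tested 3 rose in KO_PBS against WT: Il1rl1, which encodes the IL-33 receptor ST2 (3.04 ± 0.48), Il18rap, a chain of the IL-18 receptor (2.97 ± 0.57), and Il1rl2, the IL-36 receptor (2.39 ± 0.47), with edgeR adjusted p of 0.00322 to 0.00798. The shared signalling chain Il1rap (-0.07 ± 0.41), the inhibitory receptor Sigirr (-0.44 ± 0.18) and the IL-18 receptor chain Il18r1 (1.23 ± 0.43) did not pass (edgeR adjusted p = 0.0668 to 0.928).

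Of 9 other inflammasome sensors tested, 5 rose and 1 fell in KO_PBS against WT. Naip5 (2.17 ± 0.33), Naip6 (2.05 ± 0.34) and Naip1 (1.99 ± 0.36), which encode NAIP sensors of bacterial proteins, rose, but reads may be split among these near-identical copies. Nlrp10 rose by 3.16 ± 0.57 and the DNA sensor Aim2 by 1.25 ± 0.35. Nlrp6 fell by 1.39 (SE 0.37, edgeR adjusted p = 0.0267), with means of 68.9 ± 22.6 CPM in KO_PBS and 180 ± 22.9 CPM in WT (SD, n = 3 each). Of 10 genes for the adaptor, caspase, pore and cofactors, 5 rose: the adaptor Pycard (1.13 ± 0.26), Casp4, whose product senses bacterial lipopolysaccharide (2.25 ± 0.43), Gsdmd, the pore-forming gasdermin (1.93 ± 0.33), the ATP receptor P2rx7 (1.85 ± 0.30) and the channel Panx1 (2.45 ± 0.29). Their edgeR adjusted p ran from 0.00147 to 0.0153. The NLRP3 partner kinase Nek7 was at -0.01 ± 0.33 and did not pass.

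In the relay below the receptor, 4 of 16 genes rose in KO_PBS against WT and the list's median was 0.04. They were Irak3, a brake on the pathway (1.54 ± 0.22), Myd88, the adaptor (0.90 ± 0.16), Irak4 (0.56 ± 0.15) and Irak2 (0.37 ± 0.11). Among 18 genes known to respond to IL-1, which other cytokines also induce, 16 rose with a median of 4.04, where the median of all genes was -0.03. Only 9 of the 18 reached the filter in every WT library, and of these 7 rose, with a median of 2.51. Il6, Ccl20, Csf2 and Saa3 were among the others. Ccl20, a chemokine gene, rose by 5.39 ± 0.71, Vcam1, an adhesion molecule gene, by 4.42 ± 0.62, and Icam1 by 2.74 ± 0.28. Ptgs2, which encodes cyclooxygenase-2, was at -0.99 ± 0.91 and Nfkbia at 0.78 ± 0.27, and neither passed. In KO_antimiR21 against KO_PBS no gene of the 6 lists passed by edgeR, and 4 of their 61 tested genes (6.56%) had an unadjusted p under 0.05, close to the 6.95% of all genes. The IL-1 response list had a median of -0.55. In KO_antimiR21 against WT 9 of its 18 genes rose, and 5 of the 9 at the filter in every WT library, where 6.72% of all genes rose.

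**Figure D4:**
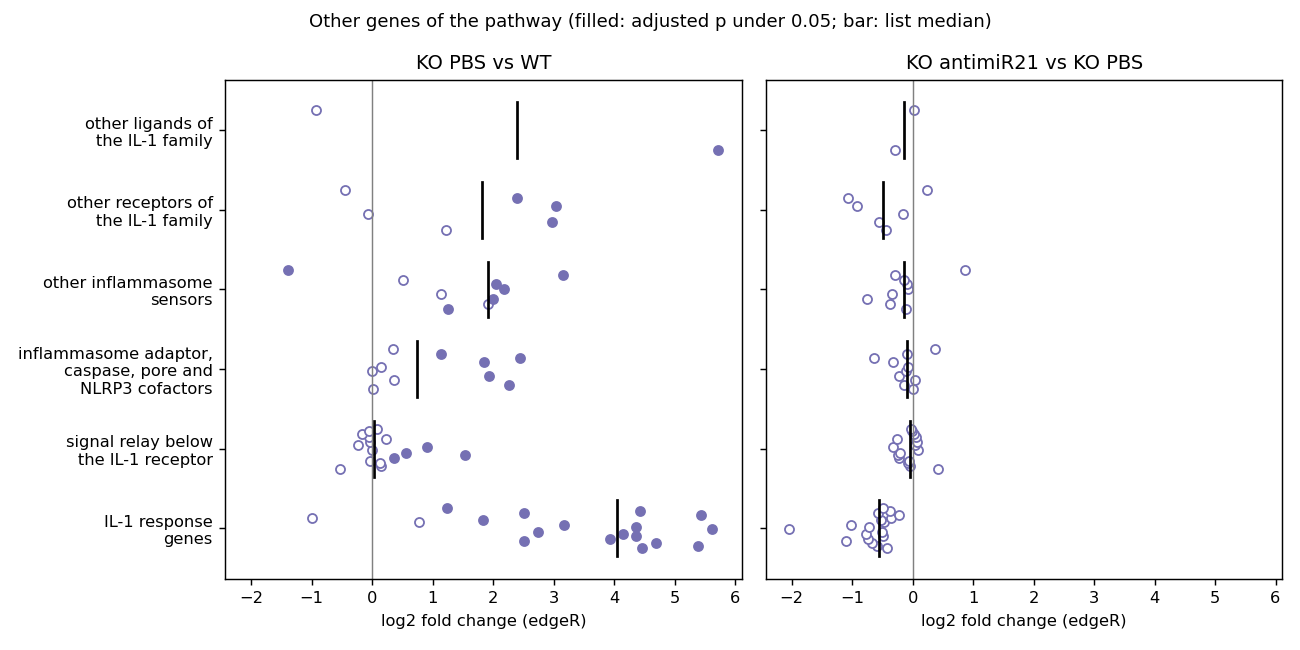
Log2 fold change (x axis, edgeR) of the tested genes of 6 pathway lists for KO_PBS against WT and KO_antimiR21 against KO_PBS, 1 point a gene, filled past an adjusted p of 0.05, with a bar at each list's median. In KO_PBS against WT the IL-1 response genes have a median of 4.04 and the signal relay genes one of 0.04, and no point is filled between the treatments.

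Markers of several immune cells rose beside the family in KO_PBS against WT, where 14.6% of all genes rose. Macrophage markers passed for 9 of 10 and summed to 628 to 1439 CPM in KO_antimiR21, 1226 to 1386 CPM in KO_PBS and 191 to 267 CPM in WT. T cell markers passed for 8 of 8, of which 3 were at the filter in every WT library, and summed to 12.3 to 23.4 CPM in KO_antimiR21, 19.1 to 23.8 CPM in KO_PBS and 4.94 to 6.23 CPM in WT. Dendritic cell markers passed for 5 of 6. Neutrophil markers passed for 2 of 4 tested and summed to 10.99 to 19.3 CPM in KO_antimiR21, 17.6 to 19.3 CPM in KO_PBS and 5.40 to 6.98 CPM in WT, with the granule genes Mpo, Elane, Ngp and Camp at 0.0932 CPM or less in each library. Fibroblast and pericyte markers passed for 5 of 7, B and plasma cell markers for 1 of 5, and mast and innate lymphoid cell markers for 0 of 3. Proximal tubule markers fell for 5 of 7 genes. The part of these cells in the values of the IL-1 family was not tested.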

How the data were processed

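Per the submitters' processing notes, reads were processed with Bowtie and RSEM against mm9. The authors deposited expected counts per gene symbol for each library and a log2 matrix of the 9 libraries, for which the notes name limma. Its columns equalled log2 CPM plus 1 constant per library. Their versions, the annotation and the strand setting are not given in those notes, and reads of overlapping or antisense genes cannot be told apart. Per the labels, the TruSeq v2 kit was used on 150 ng of RNA. Expected counts were rounded and filtered with filterByExpr. All 9 libraries entered 1 fit with 3 group means and TMM scaling in edgeR 4.0.16 (R 4.3.3), by the quasi-likelihood test with Benjamini-Hochberg adjustment over all genes. A simulated data set with known changes was used to test the fit. Ratios used expected counts plus 0.5. Alternatives used limma 3.58.1, DESeq2 1.42.0, other scalings, covariates and libraries left out. Replicates of a group differed beyond sampling noise (chi-square per gene 29.5 to 132). Exon lengths and 3' untranslated regions came from GENCODE vM21 on GRCm38, a build other than that of the counts. Promoters and the microRNA came from RefSeq. Coordinates are given only for the printed promoter windows and the microRNA, on GRCm38.p6, and not for the genes as counted. The genes, lists and motifs were chosen with earlier results of these data known. The rule for named genes took the 10 genes, Col4a3, the 3 genes of lowest p in each list and the 3 most alike genes. The text gives part of these, and others from the lists were named after their values were seen. Ly6g, Il1rapl2 and Cyp11b2 had no match among the symbols used.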

Additional observations from a re-analysis of the deposited data

How the results depend on the processing

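In KO_PBS against WT the count of 8 genes of the family called ran from 7 to 9 over the alternatives, except with sex as a covariate or in male libraries, where it was 0 (edgeR). In those 2 settings 0 of all genes passed, against 4226 in all libraries, and with 1 library left out that count ran from 2423 to 4332. In KO_antimiR21 against WT the count of 5 was 3 by limma-voom, 0 with sex or the library code as a covariate or in male libraries, and ran from 2 to 6 with 1 library left out. All genes called there numbered 1238, against 2011 by DESeq2, 707 with 2 groups in the fit, 0 in the same 3 settings, and 667 to 1602 with 1 library left out. In KO_antimiR21 against KO_PBS DESeq2 called 18 of all genes (edgeR 0), and none of the family passed in any fit. Scaled by library size alone, the medians of all genes were 0.25 in KO_PBS against WT, -0.14 in KO_antimiR21 against KO_PBS and 0.11 in KO_antimiR21 against WT, and the split in KO_PBS against WT was 3753 higher and 904 lower, against 2521 and 1705.

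Signs turned only for differences that had not passed. Il18bp in KO_PBS against WT was 0.25 by library size, 0.42 with sex, 0.45 in males, 0.10 with the code, 0.11 within code L4, and -0.25 to 0.087 with 1 library left out. In KO_antimiR21 against WT it was 0.071 by library size, 0.38 with sex, 0.42 in males, 0.39 with the code, and -0.24 to 0.072 with 1 left out. In KO_antimiR21 against KO_PBS it was 0.29 with the code and within code L5, and -0.18 to 0.19 with 1 left out. Il18 there was 0.0044 by limma-voom, 0.027 in the deposited matrix, 0.0013 with no filter, 0.34 with the code and within L5, and -0.13 to 0.21 with 1 left out. Casp1 was 0.27 with the code and within L5, and -0.32 to 0.089 with 1 left out, and Il1rn was -0.61 to 0.087. The ratio of Il18bp to Il18 ran from -0.18 to 0.054. The cause was not tested.

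Same-numbered libraries did not deviate together (r = -0.37 to 0.44), so the numbers do not pair them. With the replicate number as a block 7, 0 and 4 genes of the family passed, and 3205, 0 and 923 of all genes. The low counts of Il1a and Il1r2 in WT limit the precision of their fold changes. The floor of 3 counts covers counting error only, whereas the SE of a fold change also includes the spread between libraries.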
